A study of Mus musculus with 11 samples.

Results

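The genes described here are 43 genes of mitosis and the G2/M part of the cell cycle, whose RNA was measured in mouse CD4 T cells transduced with FoxP3, either of its substituted forms, or a vector without it. They were found by symbol among the probe sets that the platform annotation gives exactly 1 gene symbol, which left 100 probe sets of 43 genes out of 34945 probe sets of 18193 genes. Of the 43 genes, 14 had 1 probe set, 10 had 2, 12 had 3, 5 had 4 and 2 had 5. The groups were cells transduced with wild-type (WT) FoxP3 (3 arrays), A384T FoxP3 (3 arrays), R397W FoxP3 (2 arrays) and mock-transduced cells that received the MIGR1 retroviral vector alone (3 arrays). All 4 groups started from naive CD4+ T cells, negative for CD25 and high in CD45RB, of BALB/cA mice. All received 0.5 µg/ml anti-CD3e, IL-2 at 10 ng/ml and syngeneic spleen cells that were T cell-depleted and had received 20 Gy of radiation. They were infected 24 h later and sorted for high GFP on day 7. FoxP3 in the 3 tested forms was therefore produced from a retroviral vector in activated cells and not from its own gene. Whether the arrays within a group stem from separate cultures or mice is not stated in the labels, and the p-values therefore reflect only array-to-array spread, possibly technical.

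Cells that enter mitosis activate CDK1 with A- and B-type cyclins, condense their chromosomes, attach them to a spindle under control of the spindle assembly checkpoint, and divide once the anaphase-promoting complex destroys securin and cyclin B. The transcripts of most of these genes peak together in G2 and M and are low in resting cells, and activated T cells express them while they proliferate. FoxP3 is the forkhead transcription factor of regulatory T cells, and both substitutions lie in its DNA-binding forkhead domain and are known from the autoimmune disease IPEX.

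Genes of this kind commonly carry a CHR element (cell cycle genes homology region) close to the transcription start, which is bound by the DREAM and MuvB complexes, together with CCAAT boxes upstream, which are bound by NF-Y. RefSeq promoter windows of mouse assembly GRCm38.p6, from 250 bases before to 50 bases after the start, were at hand for 36 of the 43 genes. The CHR letters TTTGAA, or on the other strand TTCAAA, lay in the window of 27 of these 36 genes, which is 75%, against 20.2% of 27025 genes in the table. CCAAT, or on the other strand ATTGG, lay in 26 of 36 (72.2%), against 41.1% of all genes, and 2 or more CCAAT matches lay in 18 (50%), against 13.3%. Both motifs were present in 23 members (63.9%), against 7.97% of all genes. Of 35 CHR matches, counting 1 window per gene, 27 began between -40 and +50 of the start, and 1 pair of CHR and CCAAT matches overlapped. The 150 bases before the start are printed for 4 members with both motifs and a large difference between arrays, and for Birc5, which had neither motif in its window and a WT minus mock difference of 2.35 on the log2 scale. Capitals mark CHR and CCAAT letters on either strand, and each line reads 5′ to 3′ on the strand of the gene. The regions are chr10:69352913-69353062 on the minus strand for Cdk1, chr4:118437344-118437493 on the minus strand for Cdc20, chr2:164769779-164769928 on the plus strand for Ube2c, chr11:99024190-99024339 on the minus strand for Top2a and chr11:117849087-117849236 on the plus strand for Birc5.
Cdk1: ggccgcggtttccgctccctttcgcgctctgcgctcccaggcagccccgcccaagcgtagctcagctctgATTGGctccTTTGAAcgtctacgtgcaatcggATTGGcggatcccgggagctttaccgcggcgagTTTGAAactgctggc
Cdc20: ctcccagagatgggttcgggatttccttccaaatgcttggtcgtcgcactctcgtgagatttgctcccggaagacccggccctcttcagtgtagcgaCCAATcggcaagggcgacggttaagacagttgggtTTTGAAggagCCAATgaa
Ube2c: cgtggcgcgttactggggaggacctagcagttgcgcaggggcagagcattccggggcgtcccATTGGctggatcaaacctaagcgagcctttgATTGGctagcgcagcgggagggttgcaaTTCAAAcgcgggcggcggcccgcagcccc
Top2a: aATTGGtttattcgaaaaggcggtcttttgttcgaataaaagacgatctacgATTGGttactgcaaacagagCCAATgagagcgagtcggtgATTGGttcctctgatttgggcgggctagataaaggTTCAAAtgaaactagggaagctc
Birc5: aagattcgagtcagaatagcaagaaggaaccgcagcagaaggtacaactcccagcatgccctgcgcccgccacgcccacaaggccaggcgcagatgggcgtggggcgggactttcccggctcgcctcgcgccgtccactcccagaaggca

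**Figure D1:**
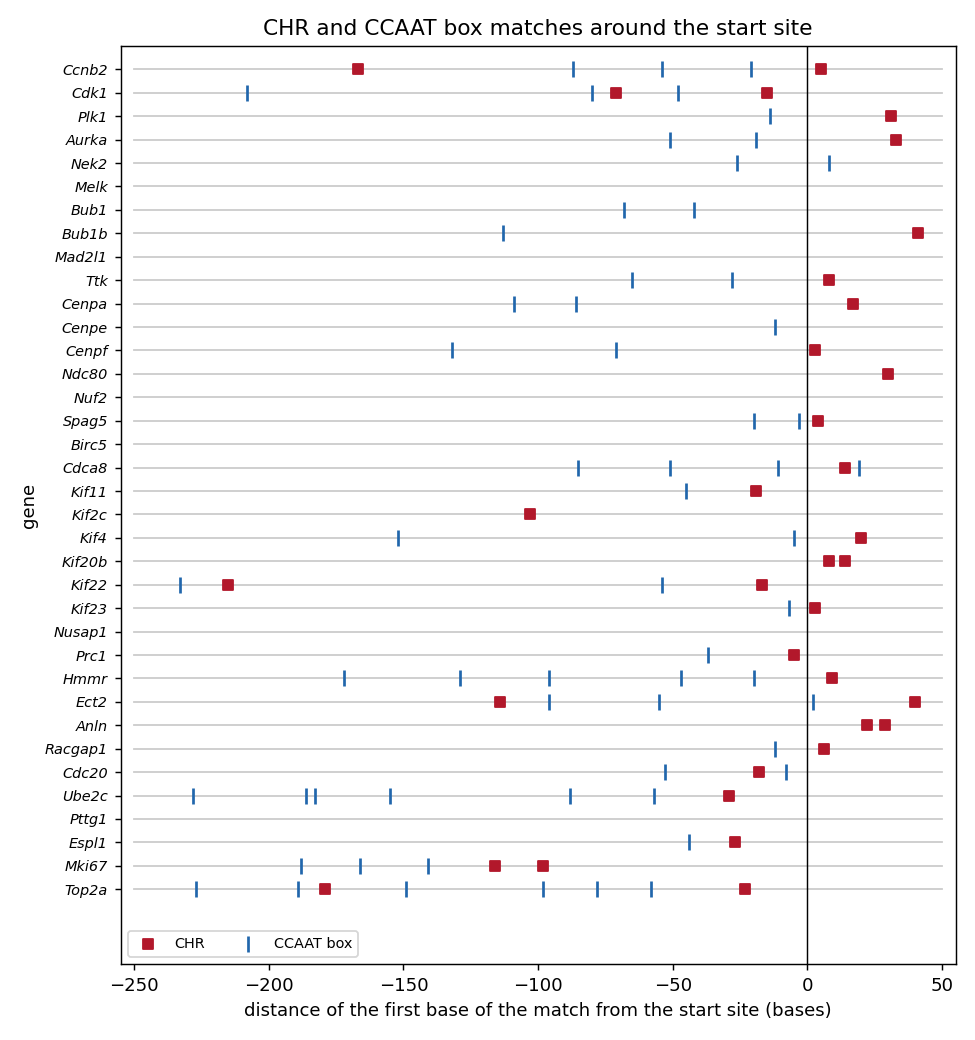
Positions of CHR (red squares) and CCAAT box (blue bars) matches in the RefSeq promoter windows of the 36 members that have one; the x axis gives the distance of the first base of a match from the transcription start in bases, with 0 at the start. Of 35 CHR matches, 27 begin between -40 and +50, and 9 genes, among them Birc5, Bub1 and Nusap1, have no CHR match in the window.

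A match is a description of letters and not a binding site. The 27 members with a CHR match and the 9 without one had median differences of 0.92 and 1.13 on the log2 scale for WT minus mock, and 1.09 and 1.12 for arrays numbered 1 minus the others, a comparison described next.

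Each value is a log2 value that had been centred at each probe set so that the median of the 3 mock arrays is 0. Differences between arrays can be read and expression levels cannot, so neither the level of a gene nor the presence of T cell or other markers could be checked. Array medians over all probe sets were -0.016 to 0.0022. The single Foxp3 probe set read -0.39 to 0.33 on the arrays of the 3 FoxP3 forms, against -0.34 to 0.26 on mock arrays. Where it lies relative to the transduced coding sequence was not stated in the labels or files used here, so it does not check the labels. A gene with several probe sets is given through the one that varied most over the 11 arrays (highest standard deviation), a choice that favours larger differences. In RNA from sorted populations, a larger share of dividing cells and more RNA per dividing cell cannot be told apart.

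The sample titles number the arrays of each group, and the arrays numbered 1 stood apart for these genes. The median of the 43 genes was 1.98, 0.44 and 0.30 on WT arrays 1, 2 and 3, 1.53, 0.39 and 0.084 on A384T arrays 1, 2 and 3, 0.34 and -0.14 on R397W arrays 1 and 2, and 0.22, 0 and -0.069 on mock arrays 1, 2 and 3. Over all 100 member probe sets the medians were smaller, at 1.01, 0.11 and 0.081 on WT arrays and 0.46, 0.12 and 0 on A384T arrays. They were 0.17 and -0.077 on R397W arrays, and 0.088, 0 and -0.014 on mock arrays. On WT array 1, 37 of the 43 genes exceeded 1 and 21 exceeded 2, and on A384T array 1 these counts were 28 and 14. WT arrays 2 and 3 had 5 and 7 genes above 1, A384T arrays 2 and 3 had 10 and 1, R397W arrays 1 and 2 had 4 and 0, and mock arrays 1, 2 and 3 had 0, 1 and 0. The number 1 array was the highest of its group in all 4 groups at 30 of the 43 genes, which was the case for 12.7% of all genes.

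**Figure D2:**
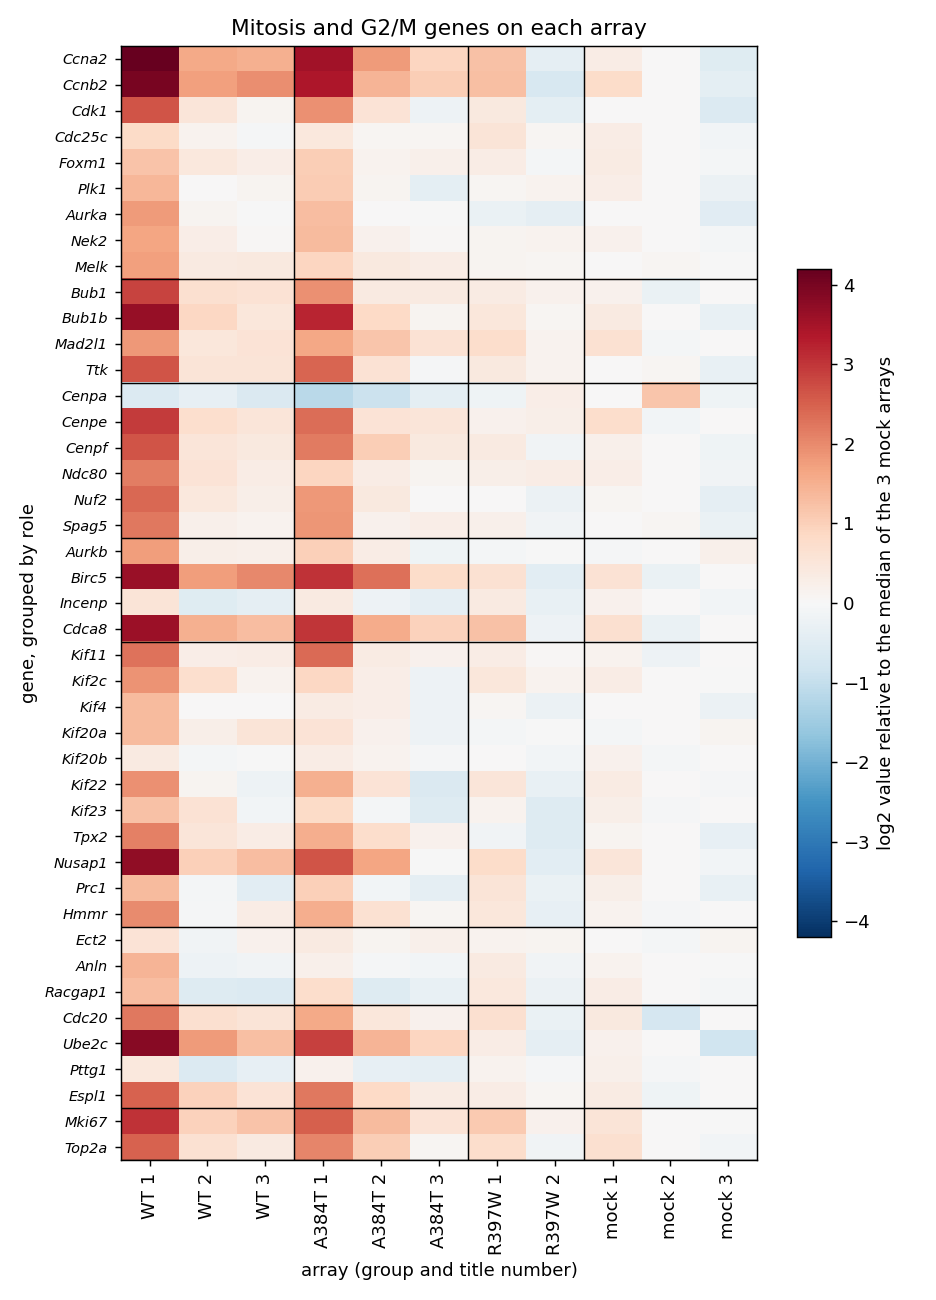
Log2 value of each of the 43 genes (rows, grouped by role with black lines) on each of the 11 arrays (columns, grouped as WT, A384T, R397W and mock), relative to the median of the 3 mock arrays; red is higher and blue lower. WT 1 and A384T 1 are the darkest columns, with Ccna2 at 4.17 and 3.54, while Cenpa runs the other way with mock 2 at 1.16.

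**Figure D3:**
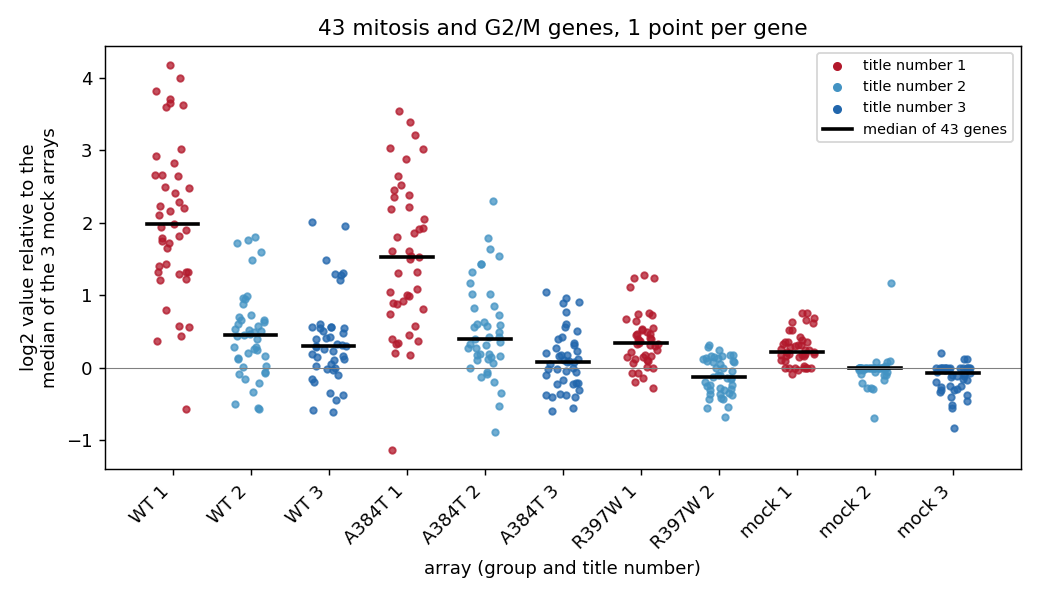
The same 43 genes as points, 1 column per array, with the log2 value relative to the median of the 3 mock arrays on the y axis; points are coloured by title number and black bars are the medians of the 43 genes. The medians are 1.98 on WT 1 and 1.53 on A384T 1 and lie between -0.14 and 0.44 on the other 9 arrays.

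The arrays numbered 1 were compared with those numbered 2 and 3 in a model with group and title number, a comparison chosen with earlier results of these data known. In it, 55 of the 100 member probe sets were higher on number 1 arrays and 0 were lower, against 9.09% of all probe sets higher and 9.1% lower (limma, adjusted p under 0.05). These probe sets belonged to 38 of the 43 genes, against 14.7% of all genes with a probe set called higher. The median difference over the 43 genes was 1.04 on the log2 scale, and that over all genes was 0.017. Without WT array 1 the count was 34 probe sets of 27 genes, and without A384T array 1 it was 35 of 26 genes, against 5.87% and 5.6% of all probe sets higher. Bub1 (adjusted p = 0.0689 and 0.0868) and Plk1 (0.0742 and 0.0733) lost the call in both cases.

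By role, the calls covered 8 of 9 genes in the group of cyclins, mitotic kinases and FoxM1 (all but Melk, a kinase of the AMPK-related family), 4 of 4 checkpoint genes and 5 of 6 centromere and kinetochore genes (all but Cenpa). They also covered 3 of 4 chromosomal passenger genes (all but Aurkb), 10 of 11 kinesins and spindle proteins (all but Kif20a), 2 of 3 cytokinesis genes (all but Ect2), 4 of 4 genes of anaphase onset, and both chromosome proteins, Mki67 and Top2a. The largest difference was at Ccna2, cyclin A2, which partners CDK2 and CDK1, at 1.82 ± 0.27 (SE, adjusted p = 0.000898). Ccnb2, cyclin B2, differed by 1.81 ± 0.19 (SE, adjusted p = 0.000104), and Bub1b, which encodes the checkpoint protein BubR1, by 1.80 ± 0.36 (adjusted p = 0.00564). The next were Nusap1, a spindle microtubule protein (1.62 ± 0.31), Cdca8, which encodes borealin (1.58 ± 0.19), and Ube2c, the ubiquitin-conjugating enzyme of the anaphase-promoting complex (1.44 ± 0.22). At the lower end, Kif20b differed by 0.26 ± 0.08 (SE). Of the genes not called, Aurkb gave 0.62 ± 0.23 (adjusted p = 0.0966) and Cenpa -0.34 ± 0.20 (adjusted p = 0.305).

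**Figure D4:**
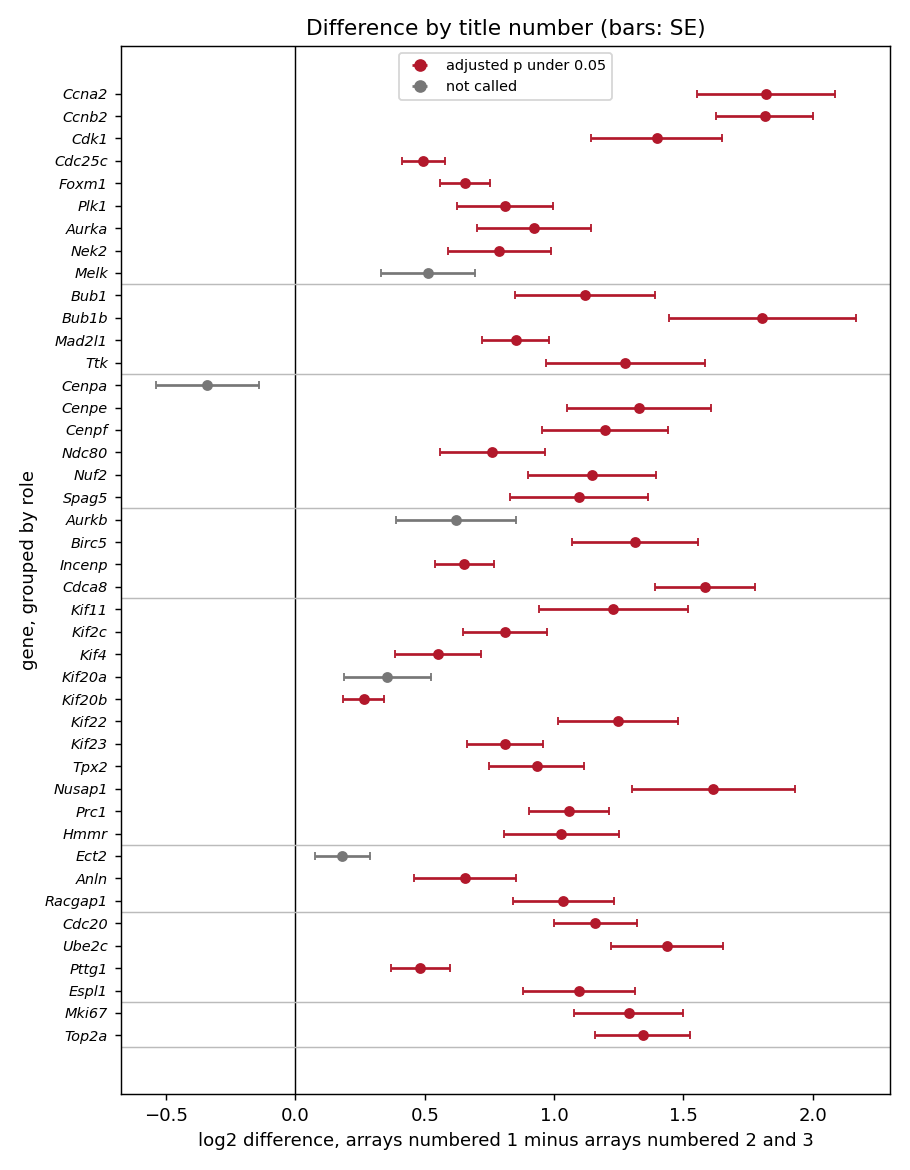
Difference of the arrays numbered 1 minus the arrays numbered 2 and 3 (x axis, log2 scale, model with group and title number) for each of the 43 genes, with bars of 1 SE; red points have an adjusted p under 0.05 and grey points do not. All points but Cenpa lie above 0, and Ccna2, Ccnb2 and Bub1b lie near 1.8.

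Probe sets of 1 gene did not always move together. At Aurka, Bub1, Foxm1, Incenp, Kif20b, Nek2 and Racgap1, 1 probe set had the sign opposite to the called ones, with differences between -0.0094 and -0.13 that were not called. At Bub1, which encodes a checkpoint kinase, the called probe set differed by 1.12 and the other by -0.13. Cenpa had no called probe set, and its probe sets differed in sign, at -0.34 for the one shown and -0.016 and 0.28 for the others.

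The arrays numbered 1 differed in other measures too. The actin control probe sets, 3′ minus 5′, gave 0.17 to 0.48 on the 4 number 1 arrays, against -0.19 to 0.026 on the other 7 arrays, whereas the GAPDH controls gave -0.10 to 0.0068 on number 1 arrays, against -0.14 to 0.11 on the others. Among 9 T cell markers, 0 were higher and 6 were lower on number 1 arrays, against 14.7% and 13.1% of all genes, with Cd247 at -0.76 and Cd28 at -0.67, and their median lay between -0.26 and -0.025 on number 1 arrays, against -0.0041 to 0.33 on the others. Of the markers of 6 groups of other cell types, Col1a2 was higher (0.96) and Pecam1 lower (-0.83), and no B cell, macrophage and dendritic cell, CD8 and NK cell, granulocyte and mast cell, or erythroid and platelet marker was called in this comparison. The part of these measures in the difference was not tested.

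In each group the array numbered 1 lay above the mean of the others, by a median over the 43 genes of 1.72 in WT, 1.25 in A384T, 0.40 in R397W and 0.31 in mock cells. The model of group by title number, which has 3 residual degrees of freedom, asked whether the difference from mock was itself different on number 1. Each group has 1 array numbered 1, so the spread came only from numbers 2 and 3 of WT, A384T and mock cells. The arrays numbered 1 are assumed to vary like these. It called 0 of 100 member probe sets for WT, A384T or R397W, as it called 0% of all probe sets. At an unadjusted p under 0.05 the counts of the 100 were 50 for WT, 30 for A384T and 2 for R397W, against 1.71%, 3.20% and 1.47% of all probe sets. The lowest p values for WT were at Bub1 (1.88 ± 0.25, SE, adjusted p = 0.899) and at Spag5, a spindle and kinetochore protein known as astrin (1.96 ± 0.27, adjusted p = 0.899). For A384T they were at Kif11, the motor that separates the spindle poles (1.87 ± 0.25, adjusted p = 1.00), and Spag5 (1.55 ± 0.27). For R397W they were at the kinetochore motor gene Cenpe (-0.88 ± 0.25) and at Ccnb2 (1.00 ± 0.38).

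The comparison of WT FoxP3 with the empty vector addresses what FoxP3 does to these genes in activated T cells. Most of the 43 genes read higher in WT cells than in mock cells, with a median difference of 0.82 against -0.016 over all genes, and the WT arrays were spread widely, with number 1 far above the others. In the model of groups alone, 0 of 100 member probe sets were called, against 3.21% of all probe sets (limma), and 21 had an unadjusted p under 0.05, against 12.3% of all probe sets. With the title number as a block, 25 probe sets of 20 genes rose and 0 fell, whereas 8.66% of all probe sets were called, 4.64% as higher and 4.01% as lower. Without the arrays numbered 1 the count was 4 probe sets, of Ccna2, Ccnb2, Cdca8 and Ube2c, against 0.861% of all probe sets higher. At 22 of the 43 genes every WT array lay above every mock array, against 8.33% of all genes, and at 31 genes the WT array was the higher at each of the 3 title numbers, against 20.4%.

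Among the regulators of mitotic entry, 4 of 9 genes rose with the block. A gene counts here, and in the roles below, if at least 1 of its probe sets was called as higher. Of all probe sets, the block called 4.64% as higher. The like share of all genes is not given, so these counts by role do not show that roles differ. Ccna2 read 4.17, 1.59 and 1.48 on WT arrays 1, 2 and 3, 3.54, 1.78 and 0.89 on A384T arrays 1, 2 and 3, 1.24 and -0.37 on R397W arrays 1 and 2, and 0.32, 0 and -0.51 on mock arrays 1, 2 and 3. All 6 WT and A384T arrays lay above all mock arrays, whereas R397W array 1 lay above them and R397W array 2 within their range. Against the mock array of the same number, Ccna2 was 14.4-, 3.02- and 3.99-fold higher on WT arrays 1, 2 and 3. WT minus mock was 2.48 ± 0.81 (SE, adjusted p = 0.179), with the block 2.48 ± 0.34 (adjusted p = 0.00109), and 1.80 without number 1 (adjusted p = 0.045).

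Ccnb2 followed the same order, at 3.99, 1.72 and 1.95 on WT arrays, 3.40, 1.42 and 1.05 on A384T arrays, 1.27 and -0.69 on R397W arrays, and 0.76, 0 and -0.40 on mock arrays. It was called with the block (2.44 ± 0.24, SE, adjusted p = 0.000121) and without number 1 (2.04 ± 0.20, adjusted p = 0.00734). The kinase gene Cdk1 read 2.65, 0.52 and 0.11 on WT arrays, 1.93, 0.58 and -0.21 on A384T arrays, 0.41 and -0.42 on R397W arrays, and 0.017, 0 and -0.56 on mock arrays. Away from number 1 its difference was small, and WT minus mock was 1.28 ± 0.32 with the block (adjusted p = 0.0339) and 0.60 without number 1 (adjusted p = 0.575).

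Foxm1, the forkhead activator of many G2/M genes, read 1.21, 0.44 and 0.28 on WT arrays, 1.04, 0.14 and 0.20 on A384T arrays, 0.32 and -0.098 on R397W arrays, and 0.36, 0 and -0.093 on mock arrays. WT array 3 lay below mock array 1, and WT minus mock was 0.56 ± 0.12 with the block (adjusted p = 0.0177). Plk1, a kinase of spindle assembly and mitotic exit, read 1.40, 0.013 and 0.11 on WT arrays, 1.08, 0.11 and -0.41 on A384T arrays, 0.098 and 0.15 on R397W arrays, and 0.26, 0 and -0.25 on mock arrays. Only its number 1 arrays of WT and A384T exceeded all mock arrays, and it was not called for WT minus mock (0.50 ± 0.41, with the block adjusted p = 0.275). Of the others, Aurka (Aurora A), Nek2 and Melk read 1.65 to 1.79 on WT array 1 and between -0.022 and 0.40 on WT arrays 2 and 3, and Cdc25c, the phosphatase that activates CDK1, read 0.79, 0.16 and -0.036 on WT arrays.

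Of the 4 spindle assembly checkpoint genes, Bub1, Bub1b and Mad2l1 rose with the block. Bub1 read 2.83, 0.66 and 0.60 on WT arrays, 1.91, 0.39 and 0.39 on A384T arrays, 0.34 and 0.18 on R397W arrays, and 0.18, -0.28 and 0 on mock arrays. Both WT and A384T lay above all mock arrays, and WT minus mock was 1.39 ± 0.35 with the block (adjusted p = 0.0311). Bub1b read 3.66, 0.88 and 0.48 on WT arrays, 3.21, 0.85 and 0.12 on A384T arrays, 0.47 and 0.095 on R397W arrays, and 0.39, 0 and -0.30 on mock arrays, so that its A384T arrays overlapped mock. Its probe set shown here missed the threshold with the block (adjusted p = 0.0535), and the call came from another of its probe sets. Ttk, the checkpoint kinase MPS1, read 2.66, 0.53 and 0.56 on WT arrays, against 0, 0.075 and -0.31 on mock arrays, and missed it too (adjusted p = 0.0664).

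Of the centromere and kinetochore genes, Cenpf and Ndc80 rose with the block, at 1.17 ± 0.31 and 0.97 ± 0.26 (SE). Cenpa, the centromeric histone H3 variant, ran the other way: it read -0.57, -0.34 and -0.61 on WT arrays, -1.14, -0.89 and -0.41 on A384T arrays, -0.20 and 0.28 on R397W arrays, and 0, 1.16 and -0.19 on mock arrays. All WT and A384T arrays lay below all mock arrays, which was the case for 8.4% of all genes in WT and 7.65% in A384T, and mock array 2 was far above the other two mock arrays. WT minus mock was -0.83 ± 0.26 with the block (adjusted p = 0.0782). Another Cenpa probe set read 0.33, -0.69 and -0.26 on WT arrays and -0.054, 0 and 0.055 on mock arrays, so that its WT arrays fell on both sides of mock.

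In the chromosomal passenger complex, which corrects attachments and acts in cytokinesis, the members did not move alike. Birc5, which encodes survivin, read 3.62, 1.76 and 2.01 on WT arrays, 3.03, 2.30 and 0.77 on A384T arrays, 0.64 and -0.44 on R397W arrays, and 0.62, -0.28 and 0 on mock arrays. WT and A384T arrays all exceeded mock, and WT minus mock was 2.35 ± 0.61 (SE, adjusted p = 0.0793), the lowest adjusted p of any member in the model of groups alone, and 2.35 ± 0.31 with the block (adjusted p = 0.000877). Cdca8 read 3.60, 1.49 and 1.30 on WT arrays, 3.02, 1.55 and 0.96 on A384T arrays, 1.23 and -0.20 on R397W arrays, and 0.68, -0.29 and 0 on mock arrays. It rose with the block (2.00 ± 0.25, adjusted p = 0.000564) and without number 1 (1.54 ± 0.22, adjusted p = 0.026). Aurkb, the kinase of the complex, read 1.75, 0.25 and 0.23 on WT arrays, 0.99, 0.32 and -0.18 on A384T arrays, -0.080 and -0.012 on R397W arrays, and -0.037, 0 and 0.20 on mock arrays. WT arrays 2 and 3 were barely above mock array 3, and with the block the adjusted p was 0.228. Incenp, the scaffold, read 0.56 on WT array 1 and -0.50 and -0.38 on WT arrays 2 and 3, against 0.17, 0 and -0.11 on mock arrays.

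Kinesins and spindle proteins split in the same way. Of 11 genes, Kif2c, Tpx2, Nusap1 and Hmmr rose with the block, Hmmr through a probe set other than its most variable one. Nusap1 read 3.71, 0.99 and 1.30 on WT arrays, 2.65, 1.64 and -0.012 on A384T arrays, 0.76 and -0.44 on R397W arrays, and 0.51, 0 and -0.11 on mock arrays. Its WT arrays all lay above mock, and A384T array 3 did not. Kif11 read 2.28, 0.28 and 0.30 on WT arrays, 2.38, 0.35 and 0.17 on A384T arrays, 0.30 and 0.046 on R397W arrays, and 0.15, -0.21 and 0 on mock arrays. Prc1, which bundles microtubules of the central spindle, and Kif22, a chromosome-arm motor, read 1.32 and 1.94 on WT array 1 but -0.45 and -0.20 on WT array 3.

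The cytokinesis genes gave 0 calls of 3 with the block. Racgap1, a subunit of centralspindlin, read 1.29, -0.55 and -0.58 on WT arrays, 0.74, -0.54 and -0.31 on A384T arrays, 0.45 and -0.24 on R397W arrays, and 0.30, 0 and -0.069 on mock arrays. Its number 1 arrays stood above zero in all groups, and WT arrays 2 and 3 lay below every mock array. Anln, the actin-binding protein anillin, read 1.43, -0.22 and -0.16 on WT arrays, against 0.16, 0 and -0.024 on mock arrays.

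At anaphase onset, Cdc20, Ube2c and Espl1 rose with the block and securin (Pttg1) did not. Ube2c read 3.82, 1.80 and 1.28 on WT arrays, 2.88, 1.43 and 0.90 on A384T arrays, 0.33 and -0.37 on R397W arrays, and 0.19, 0 and -0.84 on mock arrays. Every WT and A384T array exceeded every mock array, and WT minus mock was 2.51 ± 0.28 with the block (adjusted p = 0.000257) and 1.96 ± 0.32 without number 1 (adjusted p = 0.0418). Cdc20, the activator of the anaphase-promoting complex, read 2.21, 0.66 and 0.55 on WT arrays, 1.60, 0.49 and 0.17 on A384T arrays, 0.67 and -0.29 on R397W arrays, and 0.42, -0.69 and 0 on mock arrays. WT minus mock was 1.23 ± 0.21 with the block (adjusted p = 0.00374), and 0.95 without number 1 (adjusted p = 0.147). Pttg1 read 0.43, -0.57 and -0.35 on WT arrays, against 0.22, -0.034 and 0 on mock arrays.

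The proliferation marker Mki67 read 3.02, 0.96 and 1.21 on WT arrays, 2.52, 1.32 and 0.56 on A384T arrays, 1.11 and 0.18 on R397W arrays, and 0.53, 0 and -0.019 on mock arrays. All WT and A384T arrays lay above all mock arrays, with A384T array 3 only slightly so, and WT minus mock was 1.56 ± 0.27 with the block (adjusted p = 0.00422). Top2a, topoisomerase II alpha, read 2.49, 0.63 and 0.39 on WT arrays, 2.05, 1.02 and 0.084 on A384T arrays, 0.73 and -0.15 on R397W arrays, and 0.66, 0 and -0.13 on mock arrays. WT arrays 2 and 3 did not exceed mock array 1, yet each WT array exceeded the mock array of its own number, and the difference was 0.99 ± 0.24 with the block (adjusted p = 0.0243).

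**Figure D5:**
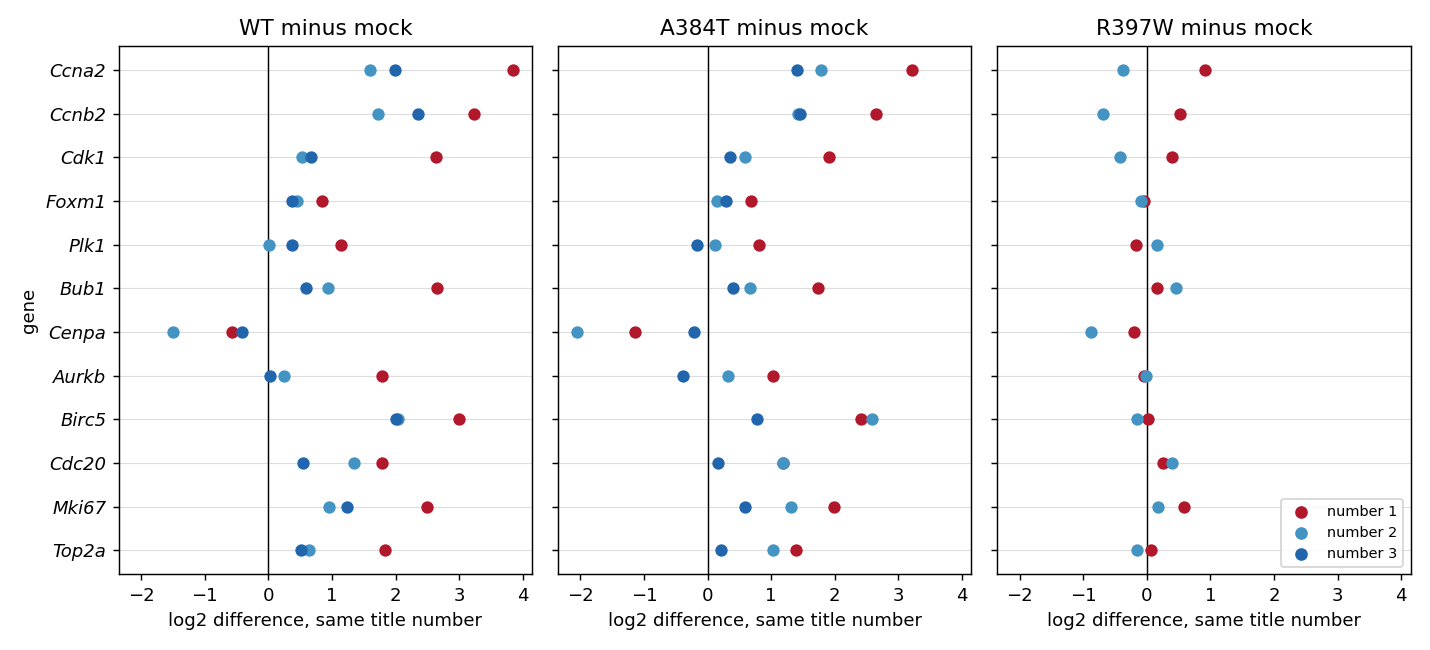
Difference of each FoxP3 form from the mock array of the same title number (x axis, log2 scale) for 12 genes, in panels for WT, A384T and R397W, with red points for number 1, light blue for number 2 and dark blue for number 3. Ccna2, Ccnb2 and Birc5 lie above 0 at all 3 numbers in WT and A384T, Plk1 and Aurkb lie above 0.4 at number 1 alone in these groups, and all R397W points lie between -0.88 and 0.92.

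For A384T FoxP3 over mock the median difference of the 43 genes was 0.71, against -0.010 over all genes, and 0 of 100 probe sets were called, against 2.7% of all probe sets (limma). At an unadjusted p under 0.05 there were 11, against 12.5% of all probe sets, a share no larger than the background. The block on title number, an alternative for this comparison, called 17 probe sets of 13 genes. Of these, 16 were higher and 1, of Cenpa, was lower, against 4.52% and 3.84% of all probe sets. Ccnb2 (1.44 ± 0.20, SE, adjusted p = 0.0289) and Cdca8 (1.40 ± 0.22, adjusted p = 0.043) were called without the arrays numbered 1, against 1.01% of all probe sets. At 12 genes all A384T arrays lay above all mock arrays, against 8.1% of all genes, and at 29 the A384T array was the higher at every title number, against 17.6%. The lowest p was at Cenpa (-1.14 ± 0.32, adjusted p = 0.117), followed by Birc5 (1.93 ± 0.61, adjusted p = 0.171) and Ube2c (1.95 ± 0.66, adjusted p = 0.203). By title number, the median difference from mock was 1.19, 0.42 and 0.21 on A384T arrays 1, 2 and 3. The same medians were 1.79, 0.46 and 0.43 on WT arrays, and both sets share the mock arrays.

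A384T and WT FoxP3 were compared directly to ask whether the substitution changes these genes. In this comparison 0 of 100 member probe sets were called, against 0.114% of all probe sets (limma), 1 had an unadjusted p under 0.05, against 4.27%, and the block gave 0 as well, against 0.589%. Without the arrays numbered 1 it was again 0, against 0.00572%. The median difference was -0.25 and single genes ranged from -0.61 to 0.18. The probe set under 0.05 was a less variable one of Nusap1, which was higher in A384T (0.23 ± 0.096, SE, adjusted p = 1.00). By the most variable probe set of each gene, the lowest p values were at Kif20a, a kinesin of cytokinesis (-0.53 ± 0.26, SE), Kif2c, a microtubule-depolymerising kinesin (-0.61 ± 0.40), and Ndc80, a subunit that binds kinetochores to microtubules (-0.58 ± 0.41), all at an adjusted p of 1.00. Kif2c read 0.88, 0.27 and -0.22 on A384T arrays, against 1.90, 0.72 and 0.15 on WT arrays. A384T was the lower at each number there, and the groups overlapped. At 12 genes A384T was lower than WT at all 3 numbers, against 12.2% of all genes, and at 0 genes it was higher at all 3, against 14%. At 0 genes did the 2 groups separate, against 3.9% of all genes with A384T higher and 3.56% with A384T lower. The standard errors leave room for differences of this size, so that equal values are not shown.

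R397W FoxP3 over mock gave 0 called probe sets of 100, as it gave 0% of all probe sets (limma), and 1 had an unadjusted p under 0.05, against 1.75%. The median difference was 0.098 and single genes ranged from -0.28 at Cenpa to 0.50 at Ccna2. The probe set under 0.05 was the less variable one of Cdc25c, which was lower in R397W (-0.43 ± 0.16, SE, adjusted p = 1). By the most variable probe set of each gene, the lowest p values were at Cdc25c itself, with the opposite sign (0.25 ± 0.25, SE), and Cenpa (-0.28 ± 0.36), both with an adjusted p of 1. Their sign was opposite in other settings, with Cdc25c at -0.092 as the mean of its probe sets and Cenpa at 0.14 without mock array 2. At Melk and Ttk both R397W arrays lay above the 3 mock arrays, against 6.08% of all genes. By title number the median difference was 0.14 and -0.098 on R397W arrays 1 and 2.

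Against WT, the R397W arrays were lower at most members, with a median difference of -0.78. The model of groups called 0 of 100 probe sets, against 2.15% of all probe sets (limma), and 8 had an unadjusted p under 0.05, against 10.7%. With the title number as a block, which is an alternative for R397W, 22 probe sets of 17 genes were lower and 0 were higher. Of all probe sets, the block called 3.47% as lower and 2.93% as higher. At 36 of the 43 genes R397W was lower than WT at both shared numbers, against 28.6% of all genes, and at 18 genes both R397W arrays lay below all 3 WT arrays, against 11%. The lowest p values were at Birc5 (-2.36 ± 0.69, SE, adjusted p = 0.152) and Ube2c (-2.32 ± 0.73, adjusted p = 0.199). Without the arrays numbered 1, which leaves 1 R397W array that is assumed to vary like the other groups, Ccnb2 fell (-2.52 ± 0.25, adjusted p = 0.0156), against 0.532% of all probe sets called. Against A384T the median difference was -0.64, 0 of 100 were called, against 1.83%, and 5 had an unadjusted p under 0.05, against 11%. The block gave 12 probe sets of 9 genes lower and 0 higher here, against 3.57% and 2.94% of all probe sets. By the most variable probe set of each gene, the lowest p values were again at Birc5 (-1.93 ± 0.69, adjusted p = 0.282) and Ube2c (-1.76 ± 0.73, adjusted p = 0.40), and without number 1 Ccnb2 fell (-1.93 ± 0.25, adjusted p = 0.0422), against 0.335%.

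Other cell cycle genes were followed through 3 lists. Of 87 other G2/M and mitosis genes, 42 were higher and 8 lower on number 1 arrays, against 14.7% and 13.1% of all genes, among them Cdca5, which encodes sororin of the cohesin complex (1.81 ± 0.16, SE), and Cdca2 (1.36 ± 0.21). In WT over mock 2 rose, Cenpm (0.90 ± 0.20) and the checkpoint gene Bub3 (0.50 ± 0.10), and 1 fell, Bora, an activator of Aurora A (-0.60 ± 0.12). These counts were near the shares of all genes, 2.54% higher and 2.19% lower. In A384T over mock Bub3 rose and Bora and the phosphatase gene Cdc25b fell, the last by 1.79 on the log2 scale. These calls were also near the shares of all genes, 2.26% higher and 1.8% lower. Of 37 G1/S and replication genes, 25 were higher and 4 lower on number 1 arrays, against the same 14.7% and 13.1%, with Rrm2, a subunit of ribonucleotide reductase, at 1.25 and Ccnd3, cyclin D3, at -1.19. In WT over mock 5 of them rose and 0 fell, against 2.54% and 2.19% of all genes, among them the replicative helicase gene Mcm5 (1.95 ± 0.42, adjusted p = 0.0316) and Uhrf1 (0.88 ± 0.17, adjusted p = 0.0182), and in A384T over mock 2 rose and 1 fell, against 2.26% and 1.8%. Their median was 0.50 in WT over mock and 0.51 on number 1 arrays.

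Genes that restrain the cycle did not go one way. Of 23, 4 were higher and 7 lower on number 1 arrays, against 14.7% and 13.1% of all genes, so that the share higher was near the background. Cdkn1a, which encodes the inhibitor p21, was higher (1.96 ± 0.31, SE), whereas Btg2 (-2.54 ± 0.13), Cdkn1b, which encodes p27 (-1.79 ± 0.29), and Tob1 (-1.09 ± 0.19) were lower. In WT over mock Gadd45g (2.34 ± 0.36), Cdkn1a (1.69 ± 0.31, another of its probe sets) and Cdkn1c, which encodes p57 (0.70 ± 0.09), rose and 0 fell, against 2.54% and 2.19% of all genes. R397W over WT gave -2.37, -1.68 and -1.05 at these 3 genes, all called as lower, against 1.68% of all genes. R397W over mock gave 0 calls in all 3 lists, as it called 0% of all probe sets.

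Among markers of other cell types, the comparisons with mock called the following genes. Of all genes, 2.54% were called higher and 2.19% lower in WT over mock, and 2.26% and 1.8% in A384T over mock. Klrd1, an NK cell receptor subunit, and Fcgr3, an Fc receptor, fell in WT over mock (-3.28 and -1.75) and in A384T over mock (-3.19 and -2.53). Adgre1, the macrophage marker F4/80, fell (-1.13) and Ighm rose (0.92) in A384T over mock, and Col1a2 rose in WT over mock (2.33). Among the T cell markers Cd2 rose and Cd5 fell in both comparisons with mock, and Cd28 fell in A384T over mock. The part of these in the differences of the mitotic genes was not tested.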

How the data were processed

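RNA was measured on 11 Affymetrix arrays. The values the authors deposited are on a log2 scale. The submitters' processing notes name RMA without a version, a method that summarises the probes of a probe set after background correction and quantile normalization. At all 45101 probe sets the median over the 3 mock arrays was 0, so probe sets had been centred on mock. The labels and files used here do not state this step, and the log base was taken as 2. Centring removes levels, so low values could not be filtered, and the number of arrays limits the precision.

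Of 45101 probe sets, 34945 had 1 symbol after 13 controls were left out, 932 had several and 9211 had none listed. All 43 members matched RefSeq by Entrez identifier, with 0 symbols changed. Each probe set was fitted with limma 3.58.1 (R 4.3.3) as 1 mean per group over all 11 arrays (7 residual degrees of freedom), with Benjamini-Hochberg adjustment over all probe sets and a threshold of 0.05. The fit was also run on simulated data whose noise was independent between probe sets. That run does not show how the fit does where probe sets vary together. Tables and figures used Python 3.11.15, pandas 2.3.3 and matplotlib 3.10.9. Members, lists, comparisons and tests were chosen with earlier results of these data known.

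Title numbers pair arrays where same-numbered arrays deviate together. Correlations of deviations from the group means over 34945 probe sets, at numbers 1, 2 and 3, were 0.67, 0.50 and 0.56 for WT and mock and 0.72, 0.15 and 0.47 for WT and A384T, over 0.1 at each of 3 pairs, so the blocked value stands beside these comparisons. For A384T and mock they were 0.58, 0.086 and 0.30. R397W shared 2 numbers, 1 and 2, with any group. There the correlations were 0.62 and 0.41 with WT, 0.57 and 0.43 with A384T, and 0.70 and 0.50 with mock. For these comparisons, with a pair below 0.1 or only 2 pairs, the block is an alternative. The labels do not say what a number marks.

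Genes named with full values were 12 fixed members (Mki67, Top2a, Cdk1, Ccna2, Ccnb2, Foxm1, Plk1, Aurkb, Birc5, Cdc20, Bub1 and Cenpa), the 6 called members with the largest difference in each main comparison or, where none was called, the 3 with the lowest p, and 2 or 3 in the others. Other members named for their pattern were chosen after their values were seen. Up to 4 called genes per list were named. Alternatives were other priors, probe set rules, scalings, filters and sample sets.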

Additional observations from a re-analysis of the deposited data

How the results depend on the processing

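No member probe set was called in any of the 6 group comparisons under the variance prior with trend and robust. The same held with 1 probe set or the mean of probe sets per gene, arrays centred on their medians, or only the 2 groups compared. It held with any single WT, A384T or mock array of the 2 groups left out (range 0 to 0 probe sets in each). Of all genes, the mean of probe sets called 4.82% for WT over mock, 4.15% for A384T over mock and 3.25% for R397W over WT. For R397W over A384T, A384T over WT and R397W over mock it called 2.85%, 0.203% and 0%. With the replicate block the count was 25 for WT over mock, 17 for A384T over mock (16 higher and Cenpa lower), 22 lower for R397W over WT, 12 lower for R397W over A384T, and 0 for A384T over WT and R397W over mock. Of all probe sets the block called 8.66%, 8.36%, 6.4%, 6.51%, 0.589% and 0% in these comparisons. All 11 arrays correlated best with an array of their own number, a hint from the data and not from the design. The block with only the 2 groups compared, chosen after seeing the data, gave 20 (19 higher, 1 lower), 13, 25, 23, 0 and 0 in the same order, and called 9.97%, 3.78%, 6.36%, 5.25%, 0.392% and 0% of all probe sets. Without all arrays numbered 1 the counts were 4 for WT over mock, 2 for A384T over mock and 0 for A384T over WT. Of all probe sets, 1.42%, 1.01% and 0.00572% were called there, and R397W was left with 1 array. With only the probe sets of above-median standard deviation, WT over mock gave 2 of 75, against 6.12%. For number 1 over numbers 2 and 3, the count of 55, against 9.09% of all probe sets higher, ranged from 34 to 59 with 1 array left out. The lowest count, without WT array 1, stood against 5.87% of all probe sets higher. The mean of probe sets per gene gave 35 of 43 genes, against 8.84% of all genes higher. The tests of whether a difference from mock changed on number 1 gave 0 with any 1 array numbered 2 or 3 of the 2 groups left out. R397W array 2 and the arrays numbered 1 were not left out, so how far a single number 1 array matters there was not examined. For single genes, A384T over mock changed sign at Plk1 without number 1 (-0.026) and without A384T array 1 (-0.15, with a range up to 0.59 over arrays left out) and at Aurkb without number 1 (-0.030). R397W over mock changed sign at Cdc25c with the mean of probe sets (-0.092) and at Cenpa without mock array 2 (0.14, with a range down to -0.54). The causes were not tested. Over 57 results for single genes, 812 values kept direction and side of the threshold, 51 passed it with the same direction, 5 changed sign and 5 lost the call, which were the number 1 differences of Plk1 and Bub1 without WT array 1 or A384T array 1 and of Plk1 against number 2 alone (adjusted p = 0.0607).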
